A study of Homo sapiens with 12 samples.

Results

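SR splicing factors and the CLK kinases that phosphorylate them were followed in human cells treated with acriflavine, a mixture of acridine dyes that bind DNA. The set held 10 genes, taken by symbol from the 63152 genes of the deposited count table: SRSF1, SRSF2, SRSF3, SRSF5, SRSF6, SRSF7, TRA2A, TRA2B, CLK1 and CLK4. All 10 passed the filter on low counts, which left 16839 genes for testing. The study sequenced poly-A RNA of cells labelled HepG2, an established line from a human hepatoblastoma. Its sample descriptions name HepG2S1, a derivative selected for sorafenib resistance. The study's stated subject is the change of epithelial cells to a mesenchymal state. There were 4 control libraries, 4 libraries of cells given 2.5 µM acriflavine and 4 of cells given 5 µM, all harvested after 24 h. One label calls the control cells untreated, while the treatment protocol names DMSO as the vehicle. All groups were near-confluent cells of 1 line in serum medium with insulin and dexamethasone.

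SR proteins bind exonic enhancer sequences through RNA recognition motifs and recruit the spliceosome through a domain rich in arginine and serine. Kinases of the CLK and SRPK families phosphorylate that domain, which governs where SR proteins sit in the nucleus and how active they are. Many SR genes limit their own output by splicing in a poison exon, which sends the transcript to nonsense-mediated decay. In GENCODE 29, all 10 genes have at least 1 transcript annotated as a decay target, as do 35.7% of 19922 protein-coding genes, and 9 of the 10 have a retained-intron transcript, as do 46.2%. The deposited counts are sums per gene, so productive and decay isoforms cannot be told apart in any value given here.

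Promoter windows from RefSeq on GRCh38.p14, which run from 250 bases before to 50 bases after the annotated start, were found for 8 of the 10 genes. SRSF2 and TRA2A had no entry. SRSF7 and CLK1 had 2 windows each, for 2 annotated starts, and the others 1. The windows of 3 genes that fell strongly at 5 µM and of SRSF5, which rose, are shown to let their sequences be compared, with 1 of the 2 windows of SRSF7. Capitals mark the core letters of the cyclic AMP response element (TGACG, or CGTCA on the other strand), the CCAAT box (CCAAT or ATTGG) and the TATA box (TATAAA, or TTTATA on the other strand).
SRSF1 (chr17:58007197-58007496, strand -): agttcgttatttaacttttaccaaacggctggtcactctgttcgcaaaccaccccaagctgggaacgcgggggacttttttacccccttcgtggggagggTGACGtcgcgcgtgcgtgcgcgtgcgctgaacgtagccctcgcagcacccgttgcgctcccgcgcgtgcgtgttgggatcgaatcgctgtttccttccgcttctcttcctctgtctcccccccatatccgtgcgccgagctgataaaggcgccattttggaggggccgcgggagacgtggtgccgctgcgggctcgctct
SRSF3 (chr6:36594112-36594411, strand +): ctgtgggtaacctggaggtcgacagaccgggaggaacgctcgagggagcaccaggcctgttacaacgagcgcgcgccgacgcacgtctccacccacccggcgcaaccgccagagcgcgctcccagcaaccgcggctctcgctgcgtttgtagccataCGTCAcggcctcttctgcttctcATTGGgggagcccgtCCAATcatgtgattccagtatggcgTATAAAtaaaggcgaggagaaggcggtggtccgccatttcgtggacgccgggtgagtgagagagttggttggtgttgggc
SRSF7 (chr2:38751312-38751611, strand -): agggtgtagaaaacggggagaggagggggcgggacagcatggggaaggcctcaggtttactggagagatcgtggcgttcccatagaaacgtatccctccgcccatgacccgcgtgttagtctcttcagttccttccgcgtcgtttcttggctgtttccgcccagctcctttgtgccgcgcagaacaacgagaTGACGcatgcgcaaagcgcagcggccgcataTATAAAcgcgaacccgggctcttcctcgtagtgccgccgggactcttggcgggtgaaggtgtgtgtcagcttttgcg
SRSF5 (chr14:69766892-69767191, strand +): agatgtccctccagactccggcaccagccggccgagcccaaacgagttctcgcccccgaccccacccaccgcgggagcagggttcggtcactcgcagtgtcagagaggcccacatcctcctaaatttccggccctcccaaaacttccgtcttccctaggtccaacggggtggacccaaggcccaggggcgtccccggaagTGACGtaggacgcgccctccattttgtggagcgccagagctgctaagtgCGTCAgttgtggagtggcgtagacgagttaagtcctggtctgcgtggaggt
The response element core was present in at least 1 window of 7 of the 8 genes, all but SRSF6, against 40.4% of 10701 tested genes with a window. All 4 windows shown carried it, while the second window of SRSF7 did not. A TATA box stood in the window of SRSF3 and in the window of SRSF7 shown here, but not in its second one, and in 8.53% of tested genes. SRSF3 alone among the 8 genes had a CCAAT box, which 43.1% of tested genes had. A GC box (GGGCGG, or CCGCCC on the other strand) was found in 5 of the 8 genes and in 76.6% of tested genes. These matches describe the letters of the windows.

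Library totals were 10733567 to 15116842 counts, and the 10 genes had between 85 and 3376 counts in a library. Markers were checked against the labelled cell type: ALB and AFP, which encode albumin and alpha-fetoprotein, had 0 counts in every control library, and 14 of 16 hepatocyte markers averaged under 1 CPM there (CPM, reads of a gene scaled to the library total after TMM normalization). The exceptions were CPS1 and FOXA1, the latter with 10 CPM. Most of these markers thus did not bear out the labelled cell type, and the identity of the cells was not tested. Of the 7 hepatocyte markers that were tested, 6 rose and 1 fell at 5 µM. The fall was that of CPS1, the urea cycle entry enzyme, which made up nearly all of their sum and had 945 CPM at 5 µM and 2180 CPM in controls. The rises were from low levels, such as 5.52 CPM at 5 µM and 0 CPM in controls for TF, which encodes transferrin, and 1.42 CPM at 5 µM and 0.215 CPM in controls for APOB. Of the markers that rose, APOB, FGB, TF, HNF4A and ASGR1 averaged under 1 CPM at 2.5 µM as well as in controls. The filter on low counts thus kept them largely on their 5 µM values, which favours rises. The count of 6 rises and 1 fall therefore cannot show a direction of the list. Summed hepatocyte markers were 950 to 985 CPM at 5 µM and 2150 to 2260 CPM in controls. Summed endothelial markers were 7.39 to 8.82 CPM at 5 µM and 0.169 to 0.537 CPM in controls, and blood markers 4.04 to 5.71 CPM at 5 µM and 0.879 to 1.52 CPM in controls. Fibroblast markers summed to 557 to 599 CPM at 5 µM and 619 to 769 CPM in controls, most of it DCN. Of the 4 tested fibroblast markers, DCN and LUM fell, while PDGFRB rose 3.62-fold and COL1A1 1.37-fold. PECAM1 and CD3E, which define endothelial and T cells, had 0 counts in both groups. Of 7 endothelial and 8 blood markers, 2 of each list were tested, and these all rose, from under 1 CPM in controls. They averaged under 1 CPM at 2.5 µM too, so the filter on low counts kept them largely on their 5 µM values. Such a choice favours rises, so these counts cannot show a direction of either list. At 5 µM and in controls, TEK had 6.24 and 0.168 CPM and VWF 1.65 and 0.139 CPM. PTPRC had 2.27 and 0.0391 CPM and CD14 1.57 and 0.512 CPM. The part of these differences in the results below was not tested, and in bulk RNA fewer cells of a type and less RNA per cell cannot be told apart.

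At 5 µM, 7 of the 10 genes fell and 2 rose against control, with 1 not passing the test. Of all 16839 genes, 78.2% were called in this comparison by edgeR's quasi-likelihood test (Benjamini-Hochberg adjusted p under 0.05). Falls made up 39.4% of all tested genes and rises 38.7%. SRSF1, SRSF2, SRSF3 and SRSF7 fell by at least 2-fold, which 10.8% of tested genes did. Treated and control libraries were fully separate for 7 of the 10 genes, against 70.8% of all genes. The median log2 fold change of the 10 genes was -0.74, against -0.01 over all tested genes. At 2.5 µM, 5 genes fell, 3 rose and 2 did not pass, where 59.1% of all genes were called, 28.5% as falls and 30.7% as rises. Values did not overlap for 6 of the 10, against 50.5% of all genes. The median was -0.14, against 0.02 over all genes.

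**Figure D1:**
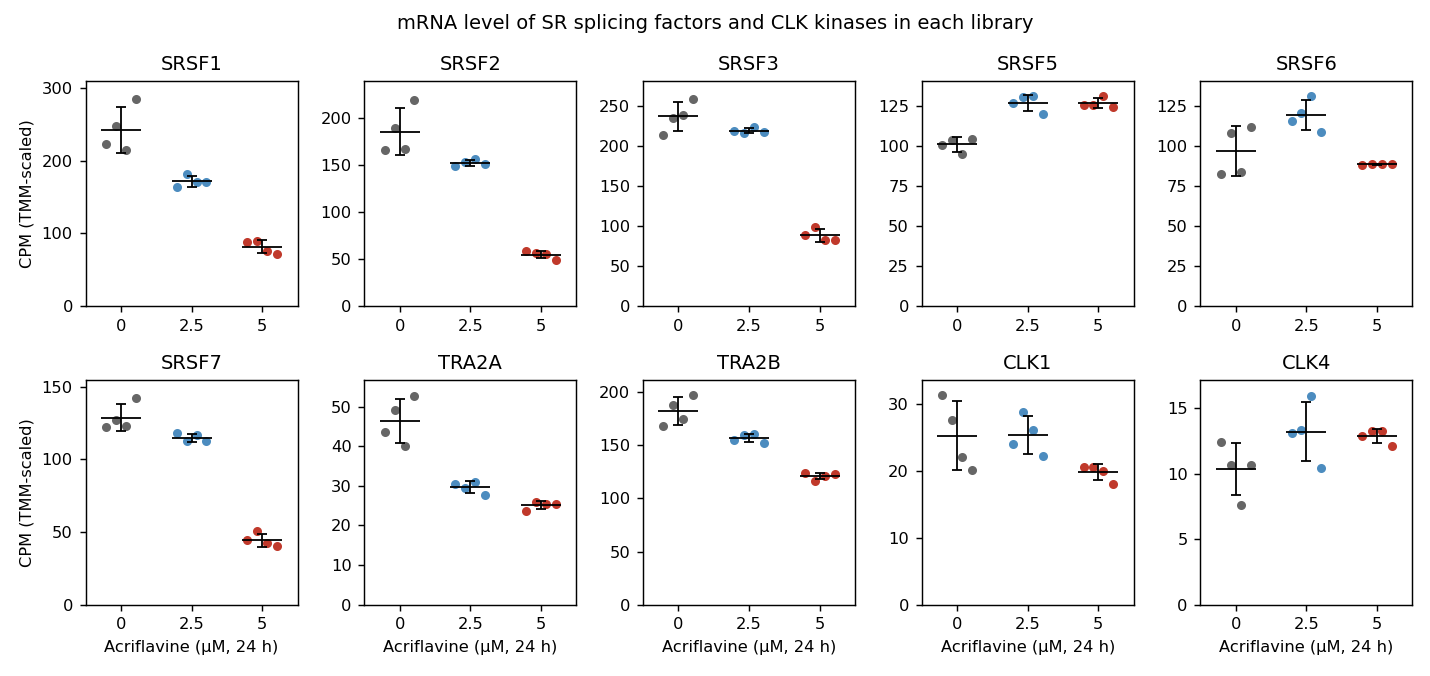
TMM-scaled CPM of the 10 genes (vertical axes, each from 0) against acriflavine dose in µM (horizontal axes). Points are the 4 libraries of a dose and bars the mean ± SD; SRSF1, SRSF2, SRSF3 and SRSF7 have all 4 libraries at 5 µM below every other library, while SRSF5 is higher at both doses than in controls.

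SRSF2 is a classical SR protein that binds exonic enhancers and is mutated in some myeloid cancers. Its level was 166, 190, 168 and 220 CPM in controls, 150, 153, 157 and 152 CPM at 2.5 µM and 58.7, 56.1, 55.0 and 49.2 CPM at 5 µM. The 3 groups did not overlap. At 5 µM its log2 fold change against control was -1.77 ± 0.07 (SE, n = 4 each, edgeR adjusted p = 4.38e-16), a level 3.4-fold lower. At 2.5 µM it was -0.28 ± 0.07 (edgeR adjusted p = 0.00117). In GENCODE 29, SRSF2 shares 1106 exonic bases with MFSD11 on the opposite strand. The strand setting of the counting is not given in the sources used here, so reads of the pair cannot be told apart. MFSD11 moved the other way, with 20.5 CPM at 5 µM and 15.2 CPM in controls.

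SRSF1 is the founding SR protein, a known oncoprotein that also acts in decay and translation. Its level was 223, 247, 215 and 284 CPM in controls, 163, 182, 171 and 170 CPM at 2.5 µM and 88.7, 89.4, 76.3 and 71.9 CPM at 5 µM. Each dose lay below the one before it without overlap. The log2 fold change was -1.58 ± 0.09 at 5 µM (SE, n = 4 each, edgeR adjusted p = 4.59e-11) and -0.50 ± 0.08 at 2.5 µM (edgeR adjusted p = 7.25e-05), both against control. SRSF1 had the largest fall at 2.5 µM among the SRSF genes of the set.

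SRSF3 and SRSF7 are closely related small SR proteins that link splicing to mRNA export and 3′ end choice. SRSF3 had 215, 236, 240 and 259 CPM in controls, 219, 217, 224 and 218 CPM at 2.5 µM and 89.2, 99.5, 82.3 and 82.9 CPM at 5 µM. SRSF7 had 122, 127, 123 and 142 CPM in controls, 118, 112, 117 and 112 CPM at 2.5 µM and 44.3, 50.8, 42.2 and 40.3 CPM at 5 µM. Both genes had all 5 µM libraries under every other library, while the 2.5 µM libraries of SRSF3 overlapped the controls and those of SRSF7 did not. Against control, the log2 fold change at 5 µM was -1.43 ± 0.06 for SRSF3 (edgeR adjusted p = 4e-21) and -1.54 ± 0.06 for SRSF7 (edgeR adjusted p = 2.46e-21; SE, n = 4 each). At 2.5 µM, SRSF7 fell by 0.16 ± 0.06 (edgeR adjusted p = 0.0136), a call lost without control replicate 4 (-0.11, edgeR adjusted p = 0.0864) or with scaling by library size (-0.12, edgeR adjusted p = 0.072). SRSF3 at 2.5 µM had a log2 fold change of -0.11 ± 0.05 (edgeR adjusted p = 0.074), which passed without control replicate 1 (-0.16, edgeR adjusted p = 0.0129) or without 5 µM replicate 2 (-0.12, edgeR adjusted p = 0.0397). Counts of SRSF3 are uncertain because processed pseudogenes resemble it. SRSF3P1 averaged 17.4 CPM at 5 µM and 46.5 CPM in controls, and SRSF3P4 5.3 CPM at 5 µM and 14.6 CPM in controls. With the counts of its pseudogenes added, an alternative chosen after seeing the data, the 5 µM value of SRSF3 was -1.43 as well.

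SRSF5 and SRSF6 belong to another SR subfamily, with 2 RNA recognition motifs each. SRSF5 had 101, 104, 95.0 and 105 CPM in controls, 127, 131, 131 and 120 CPM at 2.5 µM and 126, 126, 132 and 124 CPM at 5 µM. Both doses lay above all controls and overlapped each other. Its log2 fold change against control was 0.33 ± 0.05 at 5 µM (edgeR adjusted p = 3.01e-07) and 0.33 ± 0.05 at 2.5 µM (edgeR adjusted p = 5.5e-07; SE, n = 4 each). SRSF6 had 82.6, 108, 84.0 and 112 CPM in controls, 116, 121, 131 and 109 CPM at 2.5 µM and 87.9, 88.4, 88.7 and 88.9 CPM at 5 µM. The 5 µM libraries fell within the range of the controls, and the 2.5 µM libraries overlapped the upper controls. Counts of SRSF6 are uncertain as well, as its pseudogene SRSF6P2 averaged 12.3 CPM at 5 µM and 11.7 CPM in controls. SRSF6 rose at 2.5 µM by a log2 fold change of 0.30 ± 0.09 (edgeR adjusted p = 0.00631). At 5 µM the value was -0.13 ± 0.09 (edgeR adjusted p = 0.188), which passed without control replicate 1 (-0.21, edgeR adjusted p = 0.0154), without control replicate 3 (-0.21, edgeR adjusted p = 0.0191) or with no filter on low counts (edgeR adjusted p = 0.024).

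TRA2A and TRA2B are the human relatives of the fly sex determination factor transformer 2 and bind GAA-rich enhancers. TRA2A had 43.7, 49.2, 40.1 and 52.6 CPM in controls, 30.5, 29.4, 31.1 and 27.8 CPM at 2.5 µM and 23.7, 25.9, 25.4 and 25.4 CPM at 5 µM. TRA2B had 168, 188, 174 and 197 CPM in controls, 155, 159, 161 and 152 CPM at 2.5 µM and 124, 117, 121 and 122 CPM at 5 µM. Neither gene had overlapping groups. Against control at 5 µM, TRA2A fell by 0.89 ± 0.08 (edgeR adjusted p = 1.56e-12) and TRA2B by 0.59 ± 0.05 on the log2 scale (edgeR adjusted p = 9.33e-13; SE, n = 4 each). At 2.5 µM the falls were 0.65 ± 0.07 for TRA2A (edgeR adjusted p = 4.2e-09) and 0.22 ± 0.05 for TRA2B (edgeR adjusted p = 0.000286). TRA2A had the largest fall of the 10 genes at 2.5 µM.

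CLK1 and CLK4 are dual-specificity kinases that phosphorylate SR proteins in the nucleus. CLK1 had 31.3, 27.6, 22.1 and 20.1 CPM in controls, 24.1, 28.8, 26.1 and 22.2 CPM at 2.5 µM and 20.6, 20.6, 19.9 and 18.0 CPM at 5 µM. The 5 µM libraries overlapped the lowest control. CLK1 fell at 5 µM by 0.36 ± 0.11 (edgeR adjusted p = 0.00541), a call lost with scaling by library size (-0.23, edgeR adjusted p = 0.0906), and at 2.5 µM its value was -0.01 ± 0.11 (edgeR adjusted p = 0.967; SE, n = 4 each). CLK4 had 12.4, 10.7, 7.61 and 10.7 CPM in controls, 13.1, 13.4, 15.95 and 10.5 CPM at 2.5 µM and 12.9, 13.2, 13.3 and 12.1 CPM at 5 µM. Control replicate 3 was the lowest, and the groups overlapped at both doses. CLK4 rose by 0.30 ± 0.12 at 5 µM (edgeR adjusted p = 0.0241) and by 0.34 ± 0.12 at 2.5 µM (edgeR adjusted p = 0.0163). Without control replicate 3 neither call held (0.17, edgeR adjusted p = 0.194 at 5 µM; 0.20, edgeR adjusted p = 0.134 at 2.5 µM). The 5 µM call was also lost without 5 µM replicate 3 (0.29, edgeR adjusted p = 0.0509), and the 2.5 µM call without 2.5 µM replicate 3 (0.24, edgeR adjusted p = 0.0936).

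The second dose step, 5 µM against 2.5 µM, lowered 8 of the 10 genes and raised 0, where edgeR called 68.4% of all genes, 34.8% as falls and 33.6% as rises. The same 8 of 10 genes had no overlap, against 62.1% of all genes. SRSF5 and CLK4 did not pass. SRSF2 fell by 1.49 ± 0.07, SRSF7 by 1.38 ± 0.06 and SRSF3 by 1.31 ± 0.06 on the log2 scale (edgeR adjusted p = 3.59e-14, 3.42e-19 and 2.18e-19; SE, n = 4 each). SRSF1 fell by 1.08 ± 0.09 (edgeR adjusted p = 1.33e-08) and SRSF6 by 0.43 ± 0.09 (edgeR adjusted p = 0.00029). The falls of TRA2A (0.24 ± 0.08, edgeR adjusted p = 0.00779) and CLK1 (0.36 ± 0.11, edgeR adjusted p = 0.00672) were not called with scaling by library size (-0.15, edgeR adjusted p = 0.103 and -0.27, edgeR adjusted p = 0.0551).

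The difference between the second and the first dose step was tested directly. It passed for 7 of the 10 genes, 6 with a negative difference and 1 with a positive one, where 48.6% of all genes passed, 26.8% with a negative and 21.8% with a positive difference. The median difference was -0.48, against -0.04 over all genes. It was -1.20 ± 0.12 for SRSF2, -1.20 ± 0.09 for SRSF3 and -1.21 ± 0.10 for SRSF7 (edgeR adjusted p = 2.19e-08, 2.7e-12 and 9.3e-12), so most of the fall of these 3 genes came between 2.5 and 5 µM. SRSF1 had a smaller difference of -0.58 ± 0.14 (edgeR adjusted p = 0.0034). SRSF6 had -0.73 ± 0.15 (edgeR adjusted p = 0.000552) and SRSF5 -0.33 ± 0.08 (edgeR adjusted p = 0.00118). TRA2A alone had a positive difference, 0.41 ± 0.13 (edgeR adjusted p = 0.0109), its larger fall being in the first step. TRA2B, CLK1 and CLK4 did not pass (-0.16, -0.35 and -0.38). Each of them passed with 1 library left out, TRA2B without control replicate 4 (edgeR adjusted p = 0.0373), CLK1 without control replicate 1 (edgeR adjusted p = 0.0149) and CLK4 without control replicate 1 or 2.5 µM replicate 4 (edgeR adjusted p = 0.0487 and 0.0227).

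**Figure D2:**
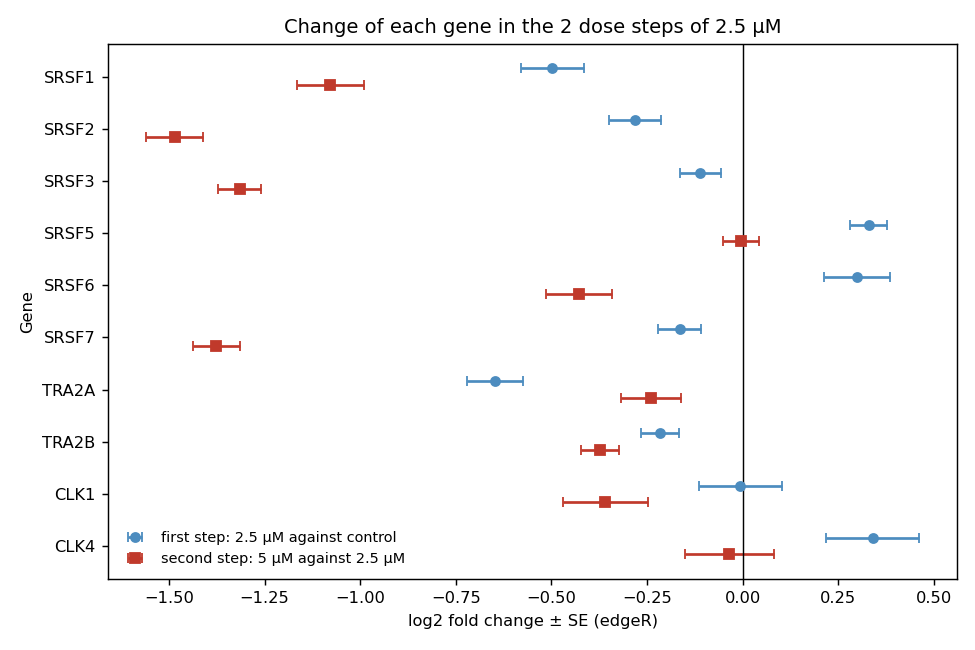
Log2 fold change ± SE from edgeR (horizontal axis) of each gene (vertical axis) in the first step, 2.5 µM against control (circles), and the second, 5 µM against 2.5 µM (squares). The squares of SRSF1, SRSF2, SRSF3 and SRSF7 lie at -1.08 or lower, whereas the circle of TRA2A lies below its square.

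The summed level of the 8 SR genes was 1220 ± 116 CPM in controls, 1092 ± 27.6 CPM at 2.5 µM and 630.7 ± 21.2 CPM at 5 µM (SD, n = 4 each). SRSF5 made up 8.33% of this sum in controls, 11.7% at 2.5 µM and 20.2% at 5 µM. SRSF1 made up 19.8% in controls, 15.7% at 2.5 µM and 12.9% at 5 µM. Within the control group, replicate 4 had the highest level of all 8 SR genes. Per kilobase of the longest coding transcript, SRSF1 led the controls with 77.7 ± 9.99 CPM per kb, followed by SRSF2, TRA2B, SRSF3 and SRSF7, and each of these 5 overlapped its neighbour in that order. SRSF5, SRSF6, TRA2A, CLK1 and CLK4 came next, of which only SRSF6 and TRA2A overlapped. At 5 µM, SRSF5 led with 45.1 ± 1.15 CPM per kb, TRA2B followed with 41.0 ± 1.1 CPM per kb, and the 2 did not overlap. The order depends on the length used: per kilobase of all exons merged, SRSF1 led SRSF5 at 5 µM with overlapping values, and TRA2B was seventh in controls. The place of SRSF1 is also uncertain because of the exonic bases it shares with AC015813.2 and AC015813.5.

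Ratios of related genes within a library do not depend on scaling, and 4 pairs were compared in 12 exact 2-sided permutation tests. For these, 0.0286 is the smallest p that 4 against 4 libraries allow. The pairs were chosen with earlier results of these data known, so the p-values describe these libraries and are not independent support. The CLK1 to CLK4 ratio was 1.54 ± 0.05 at 5 µM and 2.47 ± 0.43 in controls (SD, n = 4 each, exact permutation p = 0.0286, adjusted p = 0.0429). At 2.5 µM it was 1.94 ± 0.25 and overlapped the controls (exact permutation p = 0.0857, adjusted p = 0.103). The SRSF5 to SRSF6 ratio was 1.44 ± 0.04 at 5 µM and 1.06 ± 0.14 in controls (exact permutation p = 0.0286, adjusted p = 0.0429), and at 2.5 µM it was 1.07 ± 0.05. The TRA2A to TRA2B ratio was 0.190 ± 0.007 at 2.5 µM and 0.255 ± 0.017 in controls (exact permutation p = 0.0286, adjusted p = 0.0429), and 0.208 ± 0.013 at 5 µM. At 5 µM against control, the SRSF3 to SRSF7 ratio moved least of the 4 pairs. It was 2.00 ± 0.05 at 5 µM and 1.84 ± 0.08 in controls (exact permutation p = 0.0286, adjusted p = 0.0429). At 2.5 µM against control, the SRSF5 to SRSF6 ratio moved least (log2 difference 0.02, and 0.05 for SRSF3 to SRSF7).

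**Figure D3:**
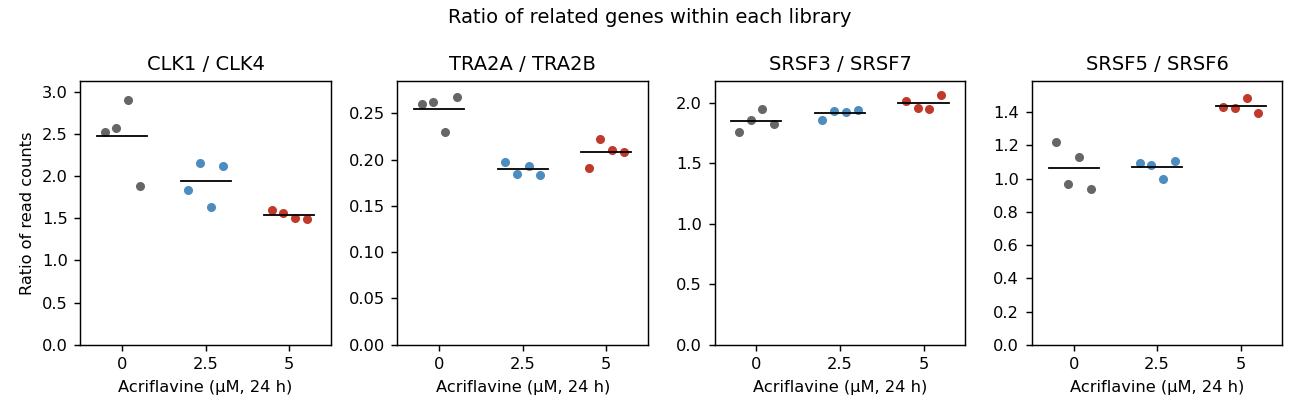
Ratio of the read counts of 2 related genes in each library (vertical axes, from 0) by acriflavine dose in µM (horizontal axes), with points for libraries and lines for the mean of 4. The CLK1 to CLK4 ratio at 5 µM lies below all controls and the SRSF5 to SRSF6 ratio above them.

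Genes with the most similar profile were sought over the 12 libraries, by the Euclidean distance between log2 CPM values centred on each gene's mean. SRSF3 was nearest to its own pseudogene SRSF3P1 (distance 0.29), whose reads may be shared. SRSF2 was nearest to SNHG7 (0.32), SRSF1 to ENTR1 (0.39), SRSF7 to DAP3 (0.30) and SRSF5 to SYAP1 (0.15). TRA2A was nearest to UFD1 (0.24), TRA2B to SOAT1 (0.16), SRSF6 to DKK1 (0.28), CLK1 to PPTC7 (0.33) and CLK4 to RRP15 (0.36). The median distance of all tested genes was between 1.23 for SRSF5 and 2.77 for SRSF2.

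The lists that follow are read against all tested genes, of which 39.4% fell and 38.7% rose at 5 µM, with a median log2 fold change of -0.01. All 4 other SR genes that were tested fell at 5 µM, with a median log2 fold change of -0.45, while SRSF8 and SRSF12 had too few counts. SRSF4, a relative of SRSF5 and SRSF6, had 73.3 ± 4.16 CPM at 5 µM and 102 ± 5.41 CPM in controls (log2 fold change -0.47 ± 0.05, edgeR adjusted p = 1.08e-09; SD and SE, n = 4 each). SRSF11 had a log2 fold change of -0.43 ± 0.06 (edgeR adjusted p = 4.01e-07) and SRSF9 of -0.31 ± 0.05 (edgeR adjusted p = 2.6e-06). SRSF10, a gene with few counts, had 0.815 ± 0.214 CPM at 5 µM and 1.97 ± 0.261 CPM in controls (log2 fold change -1.30 ± 0.25, edgeR adjusted p = 2.51e-05). SRSF9 shares 1729 exonic bases with GATC on the opposite strand, so its counts are uncertain. At 2.5 µM, 2 of the 4 rose and 1 fell, where 30.7% of all genes rose and 28.5% fell.

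Of 10 tested other kinases of SR proteins, 5 rose and 3 fell at 5 µM, with a median of 0.14, near the shares of all genes (38.7% rose, 39.4% fell). CLK2, another CLK kinase, fell by 0.91 ± 0.09 (edgeR adjusted p = 1.29e-11). CLK3 rose by 0.61 ± 0.07 (edgeR adjusted p = 4.03e-10), though it shares 701 exonic bases with EDC3 on the opposite strand, which also rose. SRPK1, the main cytoplasmic SR kinase, had 206 ± 6.88 CPM at 5 µM and 208 ± 9.3 CPM in controls (log2 fold change -0.02 ± 0.04, edgeR adjusted p = 0.742), and SRPK2 rose by 0.15 ± 0.05 (edgeR adjusted p = 0.0095). DYRK1A and DYRK1B, kinases related to the CLK family, rose by 1.06 ± 0.05 (edgeR adjusted p = 1.16e-18) and 1.67 ± 0.09 (edgeR adjusted p = 1.03e-17), and AKT1 fell by 0.62 ± 0.05 (edgeR adjusted p = 3.46e-13). Of 8 genes for the import and dephosphorylation of SR proteins, 4 rose and 2 fell, with a median of 0.15, where 38.7% of all genes rose and 39.4% fell. TNPO3, the import receptor of SR proteins, rose by 0.51 ± 0.05 (edgeR adjusted p = 4.17e-12), and so did PPP1R8 by 0.65 ± 0.06 (edgeR adjusted p = 2.81e-12). PPP1CC, a catalytic subunit of protein phosphatase 1, fell by 0.57 ± 0.04 (edgeR adjusted p = 1.95e-13).

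Among hnRNP genes, whose proteins often oppose SR proteins at splice sites, 18 of 24 fell and 3 rose at 5 µM, where 39.4% of all genes fell and 38.7% rose. Their median was -0.41, against -0.01 over all genes. HNRNPA3 had 22.7 ± 2.69 CPM at 5 µM and 94.4 ± 5.31 CPM in controls (log2 fold change -2.07 ± 0.07, edgeR adjusted p = 4.95e-23; SD and SE, n = 4 each). HNRNPR fell by 1.43 ± 0.05 (edgeR adjusted p = 5e-22), whereas HNRNPM rose by 0.57 ± 0.05 (edgeR adjusted p = 4.67e-12) and HNRNPUL1 by 0.50 ± 0.04 (edgeR adjusted p = 3.47e-12). Of 36 core spliceosome genes, 20 fell and 10 rose, with a median of -0.15, against 39.4% and 38.7% of all genes. SNRPA, the U1 snRNP protein A, fell by 1.33 ± 0.06 (edgeR adjusted p = 8.26e-21), and PRPF8, at the catalytic centre, by 0.98 ± 0.05 (edgeR adjusted p = 5.93e-19), while DHX38 rose by 0.70 ± 0.05 and PRPF31 by 0.68 ± 0.05 (edgeR adjusted p = 2.91e-15 and 6.55e-15).

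Of 27 SR-related genes, 13 fell and 9 rose, with a median of -0.15, near the shares of all genes (39.4% fell, 38.7% rose). DDX46 fell by 0.95 ± 0.05 and THRAP3 by 0.90 ± 0.05 (edgeR adjusted p = 4.27e-17 and 2.72e-17). LUC7L rose by 0.77 ± 0.07 (edgeR adjusted p = 5.88e-12), and U2AF2, the large subunit of the factor that binds the polypyrimidine tract, rose by 0.64 ± 0.05 (edgeR adjusted p = 2.08e-13). Of 14 nonsense-mediated decay factors, 6 rose and 6 fell, with a median of 0.05, also near those shares. The decay factors SMG8 and SMG5 rose by 1.44 ± 0.06 and 0.71 ± 0.05 (edgeR adjusted p = 1.16e-20 and 3.11e-15). SMG1, the kinase of the pathway, fell by 0.93 ± 0.09 (edgeR adjusted p = 3.1e-08), and MAGOHB, a subunit of the exon junction complex, by 1.19 ± 0.08 (edgeR adjusted p = 7.37e-15). Of 22 other splicing regulators, 8 fell and 6 rose, with a median of -0.05, shares no higher than those of all genes (39.4% fell, 38.7% rose). ESRP2, an epithelial splicing regulator, rose by 1.01 ± 0.06 and ELAVL1 by 0.39 ± 0.04 (edgeR adjusted p = 6.62e-17 and 1.83e-09), while NONO and RBM10 fell by 0.83 ± 0.04 and 0.82 ± 0.05 (edgeR adjusted p = 2.58e-18 and 4.82e-16). NOVA2, named after its value was seen because it lies far from the rest of its list, averaged 1.71 ± 0.316 CPM at 5 µM and 0.0659 ± 0.0853 CPM in controls.

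**Figure D4:**
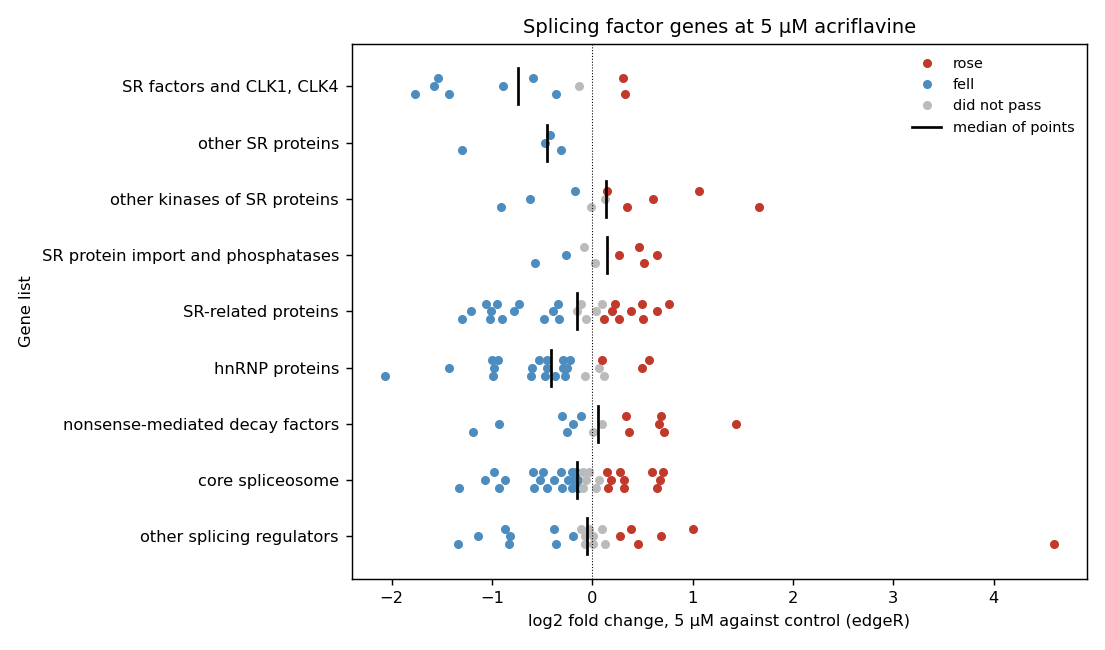
Log2 fold change from edgeR at 5 µM against control (horizontal axis) of the 10 genes and of every tested gene of 8 lists (vertical axis); points are genes, coloured by whether they rose, fell or did not pass, and black lines are medians. The 10 genes have a median of -0.74 and the hnRNP genes -0.41, and the single point far to the right is NOVA2, a gene with few counts.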

How the data were processed

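The authors deposited whole-number read counts per Ensembl gene, without normalization. Per the submitters' processing notes the build was GRCh37, with STAR 2.4.1d, featureCounts 1.4.6, cutadapt 1.7.1 and edgeR 3.8.6 among the tools, whose roles are not named. How strand and multiply mapped reads were handled in counting is not given in the sources used here. Per the labels' protocols, libraries were strand-marked mRNA libraries, and replicates are called biological.

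The 12 libraries entered 1 edgeR 4.0.16 quasi-likelihood fit (R 4.3.3, TMM scaling, filterByExpr, robust, 9 residual degrees of freedom), with p-values adjusted over 16839 genes and a threshold of 0.05. The SE is the absolute log2 fold change divided by the square root of F. Steps were tested on simulated data. Names, lengths and transcript types came from GENCODE 29 and promoters from RefSeq. The text names the 10 genes and, for each, the nearest gene outside the set. It also names every tested gene of the other SR list, CLK2, CLK3, SRPK1 and SRPK2. From each list it names up to 2 falls and 2 rises at 5 µM, those with the smallest p. Only genes with no overlap and a mean log2 CPM of at least 1 were eligible for this. The 10 genes, the lists and the 4 pairs of related genes were chosen with earlier results of these data known. The ratio of SRSF1 to SRSF5, picked after its values were seen, was also computed and left out of the tests. Alternatives were RLE, upper quartile and library size scaling, no filter, DESeq2 1.42.0, limma 3.58.1 voom, a replicate block, fits of 2 groups, each library left out and pseudogene counts added.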

Additional observations from a re-analysis of the deposited data

How the results depend on the processing

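The direction and call of SRSF1, SRSF2, SRSF3 and SRSF7 at 5 µM against control held under every alternative run. With library size scaling, which moved the median of all genes at 5 µM to 0.12, SRSF6 at 5 µM changed sign (0.0061). CLK1 at 2.5 µM, near 0, was 0.0384 with library size scaling, 0.0051 with limma voom and 0.0036 in a fit of 2 groups. In the second dose step, SRSF5 was 0.0341 with RLE scaling, 0.0503 with upper quartile scaling, 0.0859 with library size scaling, 0.0342 with DESeq2 and 0.009 in a fit of 2 groups, and CLK4 was 0.0026, 0.0189, 0.0543 and 0.002 under the first 4 of these. None of these passed the test, and the cause was not tested. With 1 library left out, the count of the 10 genes that rose at 5 µM was 1 to 2. The log2 fold change ranged from -0.10 to 0.11 for CLK1 at 2.5 µM, from -0.0282 to 0.015 for SRSF5 in the second step and from -0.13 to 0.0581 for CLK4 in that step.
Replicate numbers are shared between groups, and no label says what a number shares. Same-numbered libraries did not deviate together (12 correlations of -0.13 to 0.074), which cannot exclude a shared factor. Outside the replicate block, the numbers were used only to name libraries. With the replicate block, 2 genes rose and 7 fell at 5 µM, 3 and 5 at 2.5 µM and 0 and 8 in the second step, and CLK1 at 2.5 µM was 0.006. Among the 10 genes, CLK4 had 85 to 207 counts in a library, and its calls changed with single libraries.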
